A study of Mus musculus with 29 samples.

Results

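The comparison described here is the passage of the Rage-/- left ventricle (LV) from 10 weeks to 12 months of age. It rests on 9 of the 29 arrays of the series, chosen by the genotype and age in the sample labels: 4 middle-aged (MA) Rage-/- mice of 12 months and 5 Young Rage-/- mice of 10 weeks. These 9 mice were female, of the C57BL/6N strain by the labels, carried the Rage-/- genotype and were perfused with phosphate-buffered saline before the heart was frozen. The same ages in female C57BL/6N wild-type (WT) mice, with 4 MA and 5 Young mice handled alike, served to ask whether an age difference itself differed between genotypes. Old Rage-/- mice of 21 months (6 mice) were used for description only. Each mouse gave 1 Illumina MouseWG-6 array, whose beads carry gene probes and glow in proportion to transcript level, and the arrays lay on numbered slides called BeadChips. Levels are normalized log2 intensities throughout. The sources used here do not say whether mice shared litters or cages, so the p-values treat each mouse as independent. They measure the spread between single mice that remains after the model described below has fitted unwanted variation.

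RAGE is a cell-surface receptor of the immunoglobulin family that binds glycated proteins, S100 proteins and HMGB1, and passes the signal to NF-kappaB and other inflammatory routes. It is encoded by Ager and its ligands build up in ageing tissue. The ageing ventricle is known for a return of fetal genes, natriuretic peptides above all, in stressed cardiomyocytes, for matrix deposition and for low-grade inflammation. The probe annotation used here assigns no probe to Ager, so the deleted gene itself was not measured. Adgrf5, which codes for an adhesion receptor of endothelium, separated the genotypes: its log2 level was 4.66 to 4.95 in the 4 MA Rage-/- mice and 4.53 to 4.95 in the 5 Young ones, not above background in any of the 9, against means of 8.32 in MA WT and 8.34 in Young WT mice.

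Array quality and tissue composition were compared before the genes. Detected probes numbered 9384 to 10553 in MA and 9344 to 12220 in Young mice, and bright probes stood 4.12- to 5.29-fold over background in MA and 2.96- to 7.45-fold in Young mice, with the lowest value in Young mouse 4. The 8 measured ventricular cardiomyocyte markers, among them Myh6 and Myl2, had mean log2 levels of 13.34 to 13.41 in MA and 13.23 to 13.46 in Young mice, so the defining markers of the labelled tissue were present. Markers of endothelium lay at 9.27 to 9.58 in MA and 9.16 to 9.34 in Young mice, and those of fibroblasts at 7.22 to 7.55 in MA and 7.32 to 8.05 in Young mice. Macrophage markers were at 7.77 to 8.08 in MA and 7.32 to 8.38 in Young mice, and erythrocyte markers at 11.78 to 12.87 in MA and 11.61 to 12.07 in Young mice. Tbx3, the 1 measured of 6 listed conduction system genes, was at 7.91 to 8.50 in MA and 7.002 to 7.72 in Young mice without overlap. In the fit described below Tbx3 did not pass (difference 0.49), and 2.91% of all genes were higher in MA without overlap. Atrial cardiomyocyte markers varied most, from 7.09 to 10.05 among MA and from 7.33 to 11.13 among Young mice. All 4 MA arrays lay on BeadChip 4, which held no Young Rage-/- array, so BeadChip and age cannot be told apart for this pair of groups.

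From 10 weeks to 12 months the Rage-/- ventricle gained transcripts of the natriuretic peptide gene Nppb, the muscle ankyrin repeat genes Ankrd1 and Ankrd23, the cell-cycle inhibitor Cdkn1a, the cytokine receptor Tnfrsf12a, the protease inhibitor Serpina3n, the elastin gene Eln and the matrix protease Mmp14, and lost transcripts of the water channel Aqp4, the translation inhibitor Pdcd4, the ADP receptor P2ry1 and the autophagy kinase Ulk1. These calls were not equally firm: Mmp14 was called in 7, Ankrd1 in 8 and Ulk1 in 12 of 22 alternative analyses, and Eln in 14 of 21. Of 13277 probes, 180 passed limma's test after Benjamini-Hochberg adjustment, with a threshold of 0.05 (1.36% of those tested). Of the 180, 103 were higher (0.776%) and 77 lower (0.58%) in MA mice. Counted once per named gene, by its brightest probe, 61 of 8189 genes were higher (0.745%) and 52 lower (0.635%), with median differences of 0.86 and −0.83 log2 units. A difference here is the fitted MA minus Young value of a linear model over all 29 arrays with 5 surrogate variables, which stand for unwanted variation, so it can depart from the plain difference of means. The sizes ran from 0.44 to 2.60 among the higher and from 0.48 to 1.93 among the lower probes. In 39 of the 61 higher and 17 of the 52 lower genes the levels of the 4 MA mice did not overlap those of the 5 Young mice. Levels without overlap were found in 2.91% of all genes toward higher and 1.97% toward lower. In bulk ventricle a change in the share of a cell type and a change in transcript per cell cannot be told apart.

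The number of calls depended on how arrays were modelled. There were 38 calls without surrogate variables and 12 in a fit of the 9 arrays alone that also had none. Both BeadChip fits dropped the surrogate variables too, so the 38 calls are their like comparison. They gave 9 calls with BeadChip as a random block and 1 with BeadChip as a fixed block (1379 probes at an unadjusted p under 0.05). That 1 call was shared with none of the 180. The fixed-block fit could place BeadChip 4 only through Old WT mouse 2, its 1 array outside the MA Rage-/- group. Its differences therefore rest on that array. Among analyses that left out a mouse, there were 57 calls without Young mouse 1, 92 without MA mouse 3 and 113 without Young mouse 3. The 9 calls under the random block were all among the 180 and all higher in MA: Nppb, Ankrd23, Cdkn1a, Cdh4, Cds1, Gpnmb, the uncharacterized gene 6430548M08Rik and 2 probes without a gene name. The single other array on BeadChip 4, Old WT mouse 2, lay at a median of −0.06 from the other Old WT mice over the 103 higher probes and 0.07 over the 77 lower ones, though those mice were on brighter BeadChips.

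Nppb (chr4:147985786-147987205, GRCm38.p6), which encodes B-type natriuretic peptide, had log2 levels of 12.84, 12.92, 13.09 and 13.15 in the MA mice, against 11.01, 10.72, 10.86, 10.49 and 10.86 in the Young mice. No MA mouse came close to a Young mouse, and both groups were tight, at 13.001 ± 0.14 in MA and 10.79 ± 0.20 in Young mice (SD, n = 4 and 5). The fitted difference was 2.43 (SE 0.35, adjusted p = 0.0012), a 5.38-fold higher level. In WT hearts the same step gave 0.52 (adjusted p = 0.443), with means of 11.86 in MA and 11.40 in Young mice. The difference between genotypes, 1.90, missed the threshold (adjusted p = 0.064).

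The atrial markers varied among these mice. The mean of the 7 atrial genes was 7.09, 7.32, 10.05 and 9.86 in MA mice 1 to 4, and 9.498, 11.13, 10.88, 9.40 and 7.33 in Young mice 1 to 5. MA mice 1 and 2 and Young mouse 5 had the lowest values, with Myl7 at 4.47, 4.60 and 5.199 and Sln at 4.37, 4.51 and 4.48, and the part of atrial tissue in the Nppb levels was not tested. Nppa, the atrial natriuretic peptide gene and a member of the list, was at 12.62, 12.60, 13.38 and 13.54 in MA and 12.97, 13.97, 14.08, 13.21 and 12.37 in Young mice.

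Ankrd23 and Ankrd1 belong to the muscle ankyrin repeat family, whose proteins sit at titin in the sarcomere and whose transcripts rise with stretch. Ankrd23 (chr1:36530193-36536556) was at 10.51, 9.67, 9.93 and 10.27 in MA mice and 8.85, 8.61, 8.78, 8.45 and 8.25 in Young mice. The groups stood apart, and the difference of 1.53 (SE 0.20, adjusted p = 0.0007) had the smallest p of any named gene. WT hearts showed 0.01 (adjusted p = 0.982), with means of 9.21 in MA and 9.10 in Young mice. The genotypes differed by 1.52 in this age step (adjusted p = 0.032), a greater rise in Rage-/- than in WT in this fit. The MA mice of the genotypes lay on different BeadChips, so genotype and BeadChip cannot be told apart there. With BeadChip as a random block and no surrogate variables, no probe passed for a genotype difference in the age step. Without surrogate variables and without the block, 1 probe passed. Ankrd1 was already among the brightest transcripts, at 13.68, 13.48, 13.45 and 13.80 in MA and 13.12, 13.01, 12.98, 12.58 and 12.92 in Young mice. Its rise of 0.79 (SE 0.19, adjusted p = 0.032) was called in 8 of 22 alternative analyses, and another Ankrd1 probe gave 0.95 (adjusted p = 0.012). Rcan1, a target and inhibitor of calcineurin, was at 10.55 to 10.79 in MA against 9.68 to 10.0001 in Young mice and rose by 0.86 (SE 0.18, adjusted p = 0.016). Its difference was −0.031 with BeadChip as a fixed block and no surrogate variables.

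The start sites of Nppb, Ankrd1 and Ankrd23 are shown because all of these genes were called higher in MA mice, and because the MCAT box CATTCC, the letters bound by TEAD factors in muscle genes, lies in all of them. The sequences are RefSeq promoters of build GRCm38.p6, 250 bases before to 50 after the start, read in the direction of transcription, with capitals on CATTCC (or GGAATG, its other strand) and on the TATA box TATAAA.
Nppb (chr4:147985650-147985949, + strand): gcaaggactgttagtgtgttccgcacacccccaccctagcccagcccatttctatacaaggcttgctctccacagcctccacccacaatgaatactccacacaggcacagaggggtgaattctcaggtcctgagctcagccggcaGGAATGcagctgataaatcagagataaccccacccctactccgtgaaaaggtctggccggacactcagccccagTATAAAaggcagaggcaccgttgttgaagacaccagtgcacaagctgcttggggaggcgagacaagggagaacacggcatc
Ankrd1 (chr19:36119795-36120094, - strand): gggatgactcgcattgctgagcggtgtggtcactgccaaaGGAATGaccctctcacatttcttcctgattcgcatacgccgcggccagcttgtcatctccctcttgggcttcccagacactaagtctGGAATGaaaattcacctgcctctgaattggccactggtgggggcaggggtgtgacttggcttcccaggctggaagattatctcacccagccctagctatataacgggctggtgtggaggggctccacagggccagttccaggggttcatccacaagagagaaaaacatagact
Ankrd23 (chr1:36536507-36536806, - strand): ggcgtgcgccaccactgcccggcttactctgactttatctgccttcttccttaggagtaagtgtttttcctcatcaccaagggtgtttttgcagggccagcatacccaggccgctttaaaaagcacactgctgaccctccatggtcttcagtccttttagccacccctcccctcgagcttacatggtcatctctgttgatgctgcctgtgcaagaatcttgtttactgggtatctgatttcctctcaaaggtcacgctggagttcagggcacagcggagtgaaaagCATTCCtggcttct

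In Nppb the MCAT box begins 105 bases and the TATA box 31 bases before the start. Ankrd1 holds a pair of MCAT boxes, 210 and 123 bases before the start. Ankrd23, for which the first of 2 listed start sites is shown, has its only MCAT box 36 bases after the start. On either strand CATTCC occurs in 14.7% of all promoters of this length and in 12.5% of those of the measured genes. Of the genes higher in MA, 47 of 61 matched a promoter, and 12 of their 75 promoters (16%) held it. Of those lower in MA, 44 of 52 matched and 5 of 58 promoters (8.62%) held it. TATAAA was in 13.6% of all promoters, in 7.68% of those of the measured genes, in 4 of 75 of the higher genes (5.33%) and in 4 of 58 of the lower genes (6.9%). These matches are descriptions of letters and not of bound sites.

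Across the list of hypertrophy and fetal genes, 3 of 19 measured members rose (Nppb, Rcan1, Ankrd1), against 0.745% of all genes, none fell, and the median difference was 0.43, against −0.01 over all named genes and 0.18 for the same list in WT. Acta1, the skeletal actin gene, was at 13.03, 12.24, 12.51 and 12.90 in MA and 12.12, 12.08, 12.72, 12.33 and 11.72 in Young mice (difference 0.63, adjusted p = 0.214). Myh7, the slow myosin gene, was detected in 1 of 4 MA and 0 of 5 Young mice (difference 1.22, adjusted p = 0.130). Ccn2, a connective tissue growth factor, differed by 1.07 (adjusted p = 0.111). These 3 were chosen after their values were seen, and their groups overlapped. Rgs4, which restrains G-protein signals in cardiomyocytes, differed by −0.89 (adjusted p = 0.130), and by 1.04 with BeadChip as a fixed block and no surrogate variables.

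**Figure D1:**
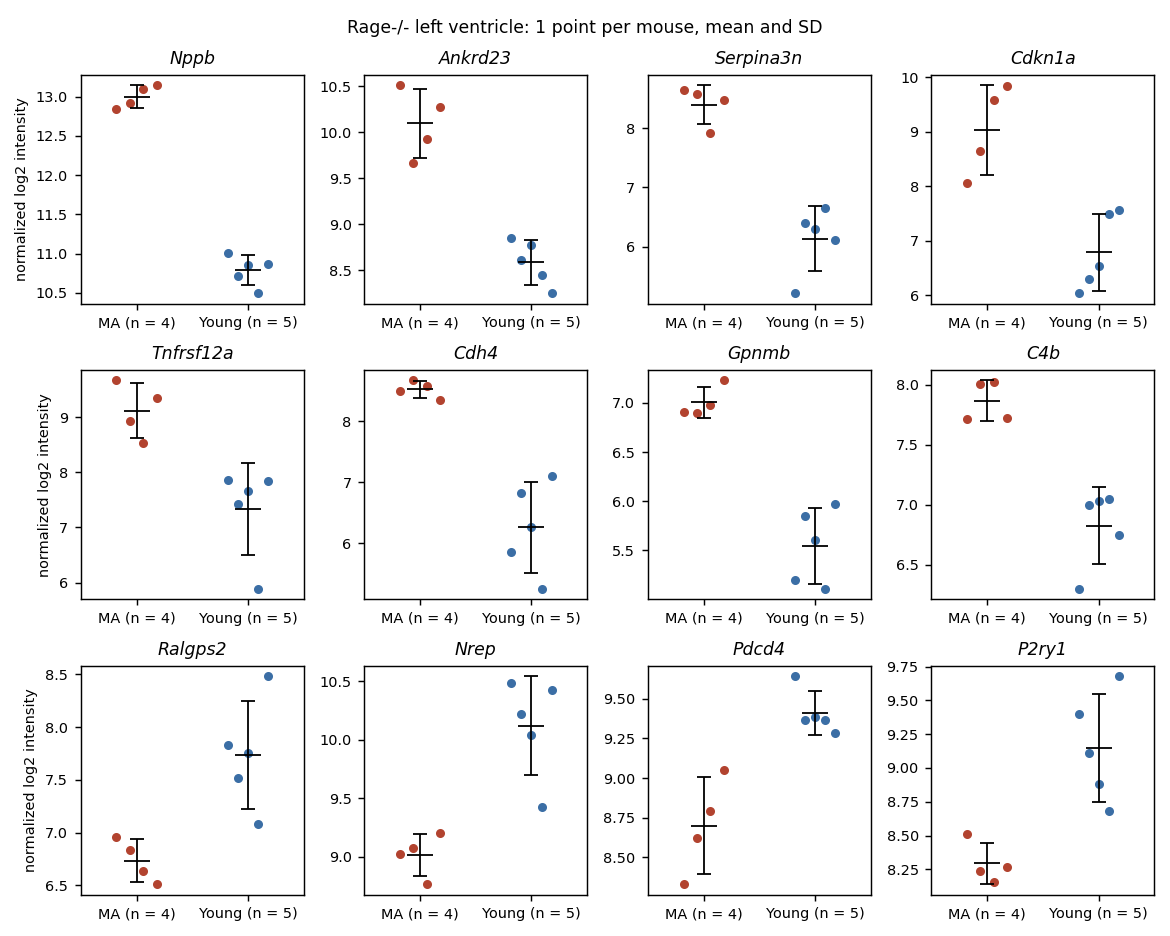
Normalized log2 intensity (vertical axis) of 12 named genes in the 4 MA (red, left) and 5 Young (blue, right) Rage-/- mice. Each point is a mouse, and the black bars give mean and SD. In all 12 panels the groups do not overlap, a condition by which every gene shown but C4b was chosen. Nppb was at 13.001 ± 0.14 in MA and 10.79 ± 0.20 in Young mice.

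Cdkn1a (chr17:29090979-29100722), which codes for the cyclin-dependent kinase inhibitor p21, was at 8.06, 8.64, 9.58 and 9.85 in MA mice and 6.04, 6.29, 6.53, 7.501 and 7.57 in Young mice. Every MA mouse exceeded every Young mouse, with a difference of 2.22 (SE 0.37, adjusted p = 0.0048), or 4.64-fold, and the other Cdkn1a probes gave 2.16 and 1.58 (adjusted p = 0.014 and 0.029). WT hearts were at 8.18 ± 0.13 in MA and 7.68 ± 0.32 in Young mice (SD, n = 4 and 5), a fitted difference of 0.52 (adjusted p = 0.489), and the genotype contrast of 1.70 did not pass (adjusted p = 0.114). Cdkn1a was the only one of 15 measured senescence and p53 target genes to be called, against 0.745% of all genes called higher, and the list median was 0.04. Of 12 measured cell-cycle genes none was called, with a median of −0.46 in Rage-/- and 0.05 in WT. Mcm6, a subunit of the replication helicase, differed by −0.76 (adjusted p = 0.072), and Mcm2, another, was not above background in any MA mouse and detected in 4 of 5 Young mice (adjusted p = 0.187).

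Tnfrsf12a, the receptor of the cytokine TWEAK (Fn14), was at 9.66, 8.93, 8.53 and 9.35 in MA and 7.86, 7.42, 7.67, 5.89 and 7.84 in Young mice, with Young mouse 4 far below the others. The difference was 1.99 (SE 0.32, adjusted p = 0.0042) and 0.75 in WT (adjusted p = 0.213). Serpina3n (chr12:104406646-104414334), a secreted serine protease inhibitor of the acute phase, had the greatest difference of all named genes, 2.60 (SE 0.42, adjusted p = 0.0036) or 6.06-fold. Its levels were 8.64, 8.57, 7.91 and 8.47 in MA against 5.21, 6.40, 6.30, 6.65 and 6.12 in Young mice, and the gene belongs to a cluster of close paralogs that a probe may not separate. In WT its difference was 1.37 (adjusted p = 0.068). Its Rage-/- difference was not called in the authors' normalized values. Gpnmb, a lysosomal glycoprotein of macrophages and other cells, was at 6.90 to 7.23 in MA and 5.11 to 5.97 in Young mice, detected in 4 of 4 MA and 2 of 5 Young mice, and rose by 1.46 (SE 0.25, adjusted p = 0.0062). The summed macrophage markers overlapped between the ages.

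Matrix genes did not move as a block. Eln, which codes for elastin, rose by 1.38 (SE 0.28, adjusted p = 0.014), at 6.08, 6.08, 6.40 and 6.08 in MA and 4.98, 5.37, 4.64, 5.06 and 5.53 in Young mice, near the detection limit (3 of 4 MA and 1 of 5 Young mice detected). Mmp14, a membrane-bound matrix protease, rose by 1.17 (SE 0.29, adjusted p = 0.041), at 9.25, 8.96, 8.93 and 8.51 in MA and 7.84, 8.38, 7.66, 7.36 and 7.35 in Young mice. Eln and Mmp14 were the only calls among 30 matrix proteins and enzymes, whose median was 0.11, against 0.745% of all genes called higher. None of 13 collagen genes was called, with a median of −0.08 and a range of −0.35 to 0.16, and 0 of 18 genes of the TGF-beta pathway, with a median of 0.00. Col6a1 was at 8.35 to 8.41 in MA and 8.49 to 8.95 in Young mice (difference −0.31, adjusted p = 0.550) and Col15a1 differed by −0.35 (adjusted p = 0.535). Pcolce2, a procollagen-processing enhancer, fell by 0.61 (adjusted p = 0.030), at 7.70 to 7.97 in MA and 8.05 to 8.41 in Young mice. Eng, a TGF-beta co-receptor of endothelium, was at 8.74 to 8.94 in MA and 7.99 to 8.73 in Young mice (difference 0.53, adjusted p = 0.108).

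Some rises were shared with WT. Cds1, an enzyme of phosphatidic acid metabolism, rose by 1.61 (SE 0.22, adjusted p = 0.00078), at 7.18, 7.80, 7.95 and 7.32 in MA and 5.96, 6.40, 5.80, 4.86 and 6.54 in Young Rage-/- mice, and by 1.70 in WT. Cdh4, which encodes R-cadherin, rose by 1.95 (SE 0.31, adjusted p = 0.0036), at 8.36 to 8.67 in MA and 5.25 to 7.099 in Young mice, and by 1.84 in WT (adjusted p = 0.001). Their genotype contrasts were −0.095 (adjusted p = 0.920) for Cds1 and 0.11 (adjusted p = 0.937) for Cdh4. Gsta1, a glutathione transferase with close paralogs, rose by 1.09 in Rage-/- (adjusted p = 0.012) and 1.06 in WT. Sh3gl2, which codes for endophilin A1, rose by 1.17 in Rage-/- (adjusted p = 0.014) and 2.44 in WT. Klk1b26, a kallikrein of a large paralog family, was at 6.40 to 7.04 in MA mice and not above background in any Young mouse, at least 1.94-fold higher. Of the 61 genes higher in Rage-/-, 12 were also called higher in WT and none lower, whereas of the 52 lower genes none was called in WT in either direction. Of all 8189 genes, 0.818% were called higher and 0.733% lower in MA WT mice. The median WT difference was 0.26 over the 61 and −0.10 over the 52, genes picked by their call in Rage-/-. A call in a single genotype does not show that the genotypes differ.

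**Figure D2:**
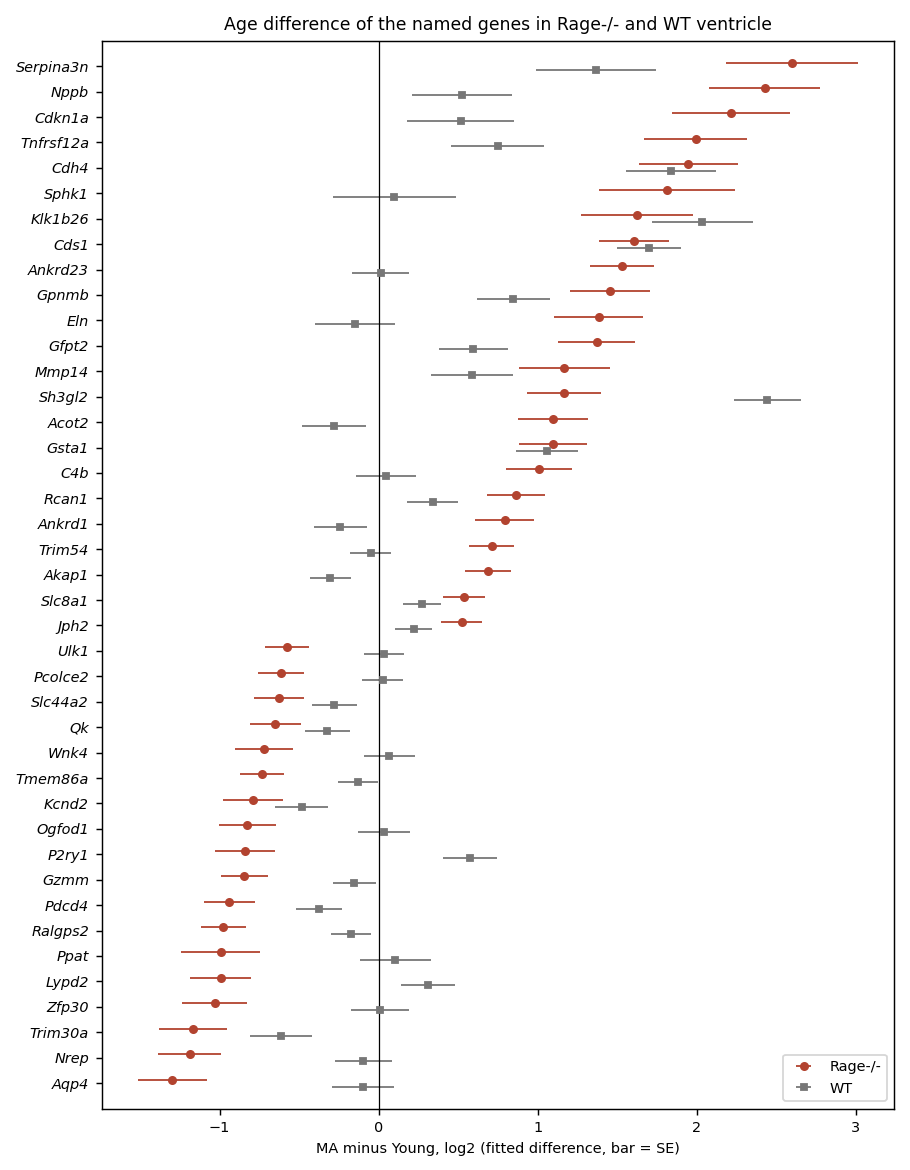
Fitted MA minus Young difference (horizontal axis, log2 units, bars give the SE) of the named genes called in Rage-/- (red circles), with the same genes in WT (grey squares). Most WT values lie nearer 0, which the choice of genes by their call in Rage-/- favours. Those of Cdh4 and Gsta1 lie close to their Rage-/- values, and those of Cds1, Klk1b26 and Sh3gl2 lie farther from 0. P2ry1 is −0.84 in Rage-/- and 0.57 in WT.

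Among the falls, Ralgps2, which codes for an exchange factor of Ral GTPases, was at 6.96, 6.84, 6.64 and 6.51 in MA and 7.83, 7.52, 7.76, 7.08 and 8.48 in Young mice. The groups did not overlap, and the difference was −0.98 (SE 0.14, adjusted p = 0.0012). Nrep, first described as P311 and linked to myofibroblasts and TGF-beta, fell by 1.19 (SE 0.20, adjusted p = 0.0048), at 9.02, 9.07, 8.76 and 9.20 in MA and 10.48, 10.22, 10.04, 9.43 and 10.43 in Young mice. Pdcd4, an inhibitor of translation initiation, fell by 0.94 (SE 0.16, adjusted p = 0.0052), at 8.33 to 9.05 in MA and 9.28 to 9.64 in Young mice. Aqp4 was at 4.49 to 4.997 in MA mice, not above background in any of the 4, and at 5.50 to 6.73 in Young mice, of which 3 were detected, so its fall (adjusted p = 0.0048) has no measured fold. Both WT ages had Aqp4 means near the Young Rage-/- level, 6.10 in MA and 6.09 in Young mice.

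Other genes fell as well. Gzmm, the granzyme M gene, was at 7.84 to 8.24 in MA and 8.28 to 9.24 in Young mice (difference −0.84, adjusted p = 0.0065). Zfp30, a zinc finger gene, fell by 1.03, Ppat, the first enzyme of purine synthesis, by 0.99, Ogfod1, a ribosomal prolyl hydroxylase, by 0.83, and Tmem86a, a lysoplasmalogenase, by 0.73. Wnk4, an ion-transport kinase, fell by 0.72, Qk, an RNA-binding splicing factor, by 0.65, and Slc44a2, a choline transporter-like protein, by 0.63. The adjusted p-values of these genes ran from 0.011 for Tmem86a to 0.049 for Slc44a2. No MA mouse overlapped a Young mouse, a condition by which these genes were chosen. The replication-dependent H2A histone genes H2ac7, H2ac22 and H2ac24 were also called lower, by 1.59, 1.61 and 1.62, but their levels overlapped between ages. They were noticed after the values were seen and are near-identical in sequence, so that a probe may read several. Of 34 such histone genes measured, 3 were called lower (8.82%, against 0.635% of all genes) and none higher, with a median of 0.18.

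The age step differed between genotypes for 14 of 13277 probes (0.105%), 10 with a more positive (0.0753%) and 4 with a more negative step (0.0301%) in Rage-/-, by the interaction term of the same limma fit. They stood for 10 named genes (0.122%), 7 more positive (0.0855%) and 3 more negative (0.0366%), and for 4 of these the step in Rage-/- was itself called. Ankrd23 was described above. Akap1, which anchors protein kinase A to mitochondria, was at 9.63, 9.68, 9.64 and 9.69 in MA and 8.79, 8.97, 8.94, 9.40 and 8.72 in Young Rage-/- mice. It rose by 0.69 (adjusted p = 0.016), against −0.305 in WT (adjusted p = 0.247), an interaction of 0.99 (adjusted p = 0.040), and other Akap1 probes gave 0.60 (adjusted p = 0.047) and, near background, 0.06 (adjusted p = 0.942) in Rage-/-. P2ry1, a receptor for ADP on platelets, endothelium and cardiac cells, was at 8.51, 8.24, 8.15 and 8.27 in MA and 9.40, 9.11, 8.88, 8.68 and 9.68 in Young Rage-/- mice. It fell by 0.84 (adjusted p = 0.026), against 0.57 in WT (adjusted p = 0.091), where means were 9.31 in MA and 8.85 in Young mice, and the interaction was −1.41 (adjusted p = 0.032). Lypd2, a lipid-anchored surface protein, was not above background in any MA Rage-/- mouse (4.80 to 5.64) and was detected in all 5 Young ones (5.67 to 6.53), at least 1.04-fold lower, with an interaction of −1.30 (adjusted p = 0.042).

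In the other 6 genes the step was called in WT and not in Rage-/-. Mprip, a myosin phosphatase partner, was at 8.45 to 8.73 in MA and 8.13 to 8.48 in Young Rage-/- mice, and its WT step was −0.48 (adjusted p = 0.019, interaction adjusted p = 0.038). Apoe, the apolipoprotein E gene, was at 8.34 to 8.83 in MA and 8.10 to 8.55 in Young mice, with a WT step of −0.67 (adjusted p = 0.022, interaction adjusted p = 0.046). Tie1, an endothelial receptor kinase, was at 5.50 to 6.60 in MA and 5.59 to 6.46 in Young mice, with a WT step of −0.98 (adjusted p = 0.014, interaction adjusted p = 0.042). Pisd-ps3, Vmn1r65 and Cd72 had Rage-/- means of 7.30, 5.30 and 5.03 in MA and 7.31, 5.47 and 5.18 in Young mice. The WT steps of these 3 genes were 1.53, −2.65 and −1.61. Vmn1r65 was detected in 0 of 4 MA and 2 of 5 Young Rage-/- mice, and Cd72 in 0 of 4 and 1 of 5. Their Rage-/- steps therefore rest on values near background. The interaction was the most fragile comparison. It gave 1 call without surrogate variables, 1 without Young Rage-/- mouse 1, 6 without MA Rage-/- mouse 3 and 5 without Young Rage-/- mouse 3. It gave 0 with BeadChip as a random block and no surrogate variables, 0 with BeadChips 5 and 6 left out and 0 in the compared groups alone without surrogate variables (361, 1528 and 963 probes at an unadjusted p under 0.05).

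The 4 MA mice were not uniform. Mice 3 and 4 had Atf3, an immediate early transcription factor, at 8.37 and 8.16, while mice 1 and 2 were at 4.94 and 4.81, within or near the Young range of 4.59 to 5.83. Fosl2, a partner of AP-1, was at 9.51 and 9.74 in mice 3 and 4 and at 7.85 and 7.98 in mice 1 and 2, against 7.33 to 8.03 in Young mice. Sphk1, the kinase that makes sphingosine 1-phosphate, rose by 1.81 (SE 0.43, adjusted p = 0.033), with 6.41, 6.38, 7.71 and 8.21 in MA mice 1 to 4 and 4.87 to 6.13 in Young mice. Cdkn1a had its upper values in the same mice, and so had the atrial marker mean. The part of atrial tissue in Sphk1 and Cdkn1a was not tested. None of 17 measured immediate early genes was called, with a list median of 0.46 in Rage-/- and 0.49 in WT.

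**Figure D3:**
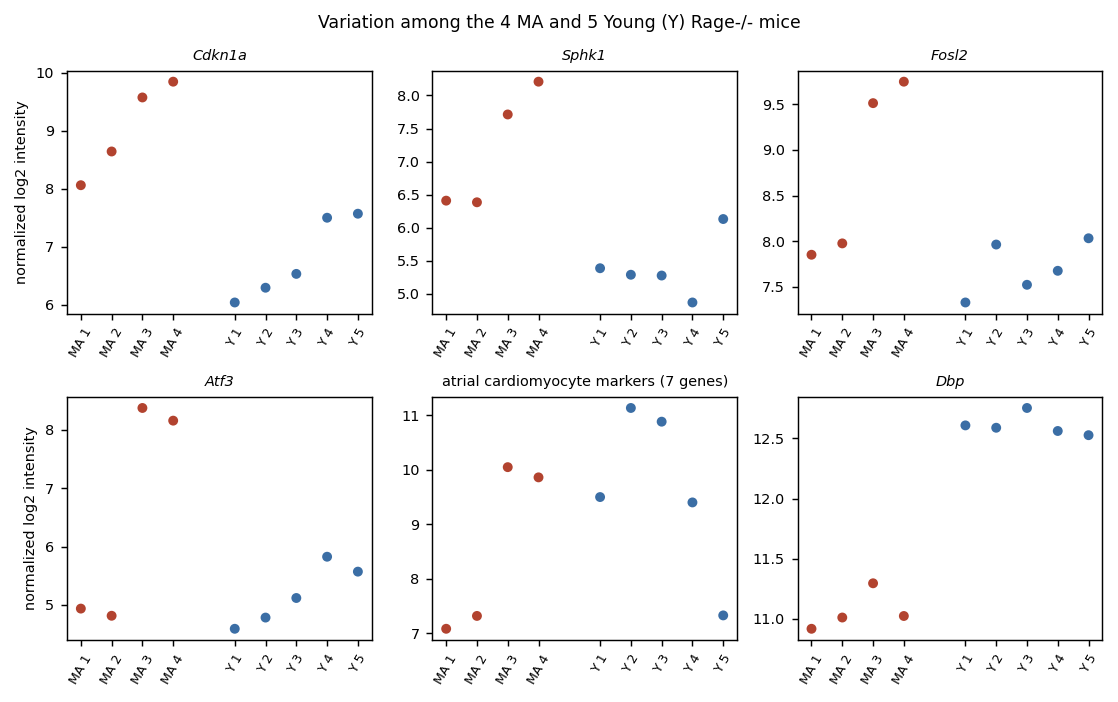
Normalized log2 intensity (vertical axis) in each MA mouse (red, left) and each Young mouse (Y, blue, right) of the Rage-/- genotype, for 5 genes and for the mean of 7 atrial marker genes. MA mice 3 and 4 lie above MA mice 1 and 2 for Cdkn1a, Sphk1, Fosl2, Atf3 and the atrial mean, whereas Dbp separates all MA mice (10.92 to 11.29) from all Young mice (12.53 to 12.75).

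The circadian clock list had the widest separation of raw levels and no call. Of its 13 measured genes, 2 were higher and 5 lower in all MA than in all Young mice without overlap, against 2.91% and 1.97% of all genes. Dbp, an output transcription factor of the clock, was at 10.92, 11.01, 11.29 and 11.02 in MA and 12.61, 12.59, 12.75, 12.56 and 12.53 in Young mice. The fitted difference was −1.74 (SE 0.52, adjusted p = 0.104), and in a fit of the 9 arrays alone without surrogate variables, −1.55 (adjusted p = 0.0025). Per2, of the negative limb, was at 7.02 to 8.37 in MA and 9.13 to 9.62 in Young mice (−1.44, adjusted p = 0.281). Ciart, a clock repressor, was at 5.14, 6.06, 8.19 and 8.08 in MA and 8.34 to 8.65 in Young mice (−1.85, adjusted p = 0.222). Arntl, the positive limb of the clock, ran the other way, at 6.43, 5.62, 6.35 and 5.22 in MA and 4.48 to 4.71 in Young mice, where it was not above background, at least 1.09-fold higher (adjusted p = 0.073). The differences of Arntl, Per2 and Ciart turned to −1.02, 1.16 and 1.17 with BeadChip as a fixed block and no surrogate variables. That fit places the BeadChip of the MA mice through Old WT mouse 2 alone. Nr1d2, a nuclear receptor of the clock, differed by −0.68 (adjusted p = 0.087). The list median was −0.54 in Rage-/- and −0.45 in WT. Dbp, Per2 and Ciart were picked after their values were seen, and the hour of tissue collection was not given in the sources used here.

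Interferon-inducible genes gave a single call in Rage-/- mice. Of 41 measured genes, 1 fell (Trim30a) and none rose, against 0.635% and 0.745% of all genes. The median difference was −0.17, against −0.99 in WT. Irf9, Gbp2 and Ifit3 were lower in all MA than in all Young mice without overlap, against 1.97% of all genes, but were not called. Trim30a, an interferon-induced TRIM protein, was not above background in any MA mouse (4.95 to 5.45) and detected in 4 of 5 Young mice (4.78 to 6.68), with overlap, so its fall (adjusted p = 0.0088) has no measured fold. The GTPase genes Igtp and Irgm2 were at 7.53 to 7.76 and 7.95 to 8.57 in MA and at 7.43 to 8.13 and 8.41 to 9.11 in Young Rage-/- mice. In WT their means were 8.48 and 9.002 in MA and 10.73 and 11.29 in Young mice. The fitted steps were −0.14 for Igtp (adjusted p = 0.899) and −0.30 for Irgm2 (adjusted p = 0.701) in Rage-/-, and −2.20 and −2.09 in WT. Their interactions of 2.06 (adjusted p = 0.056) and 1.79 (adjusted p = 0.053) just missed the threshold. For Igtp the Rage-/- step was 0.061 in the authors' normalized values. Ifit3 stepped by −0.55 in Rage-/- (adjusted p = 0.498) and −1.64 in WT (adjusted p = 0.008). None of 19 genes of antigen processing and MHC class I was called, with medians of 0.12 in Rage-/- and −0.48 in WT, and H2-T10 was at 7.04 to 7.36 in MA and 6.02 to 7.02 in Young Rage-/- mice (adjusted p = 0.188).

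Of 11 complement genes only C4b was called, against 0.745% of all genes called higher. C4b was at 7.72, 8.01, 8.02 and 7.73 in MA and 6.30, 6.9997, 7.03, 7.05 and 6.75 in Young mice, without overlap (1.01, SE 0.21, adjusted p = 0.015), against 0.05 in WT. Its near-identical neighbour C4a differed by 0.74 (adjusted p = 0.164), and by −0.14 with BeadChip as a fixed block and no surrogate variables. A probe may not separate the pair. Among 19 NF-kappaB and inflammation genes none was called. Icam1, an adhesion molecule of activated endothelium, was at 7.43 to 7.94 in MA and 6.24 to 7.34 in Young mice (0.78, adjusted p = 0.064). Of 16 measured RAGE ligands, partners and glycation enzymes none was called, with a median of 0.00 and a range of −0.38 to 0.66. The values for Lgals3, a galectin that binds glycated proteins, were 8.58 to 8.94 in MA and 7.53 to 9.07 in Young mice (0.66, adjusted p = 0.356).

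Metabolic transcripts gave few calls. The 60 genes of the respiratory chain and ATP synthase ranged from −0.32 to 0.25 with a median of −0.07 and no call, the 17 of the TCA cycle had a median of −0.04 and no call, and the 42 cytosolic ribosomal proteins had a median of −0.06 and no call. Among 34 genes of fatty acid oxidation and PPAR targets 1 was called higher, against 0.745% of all genes. It was Acot2, a mitochondrial acyl-CoA thioesterase with close paralogs, at 7.13, 6.12, 6.28 and 6.63 in MA and 5.49, 6.76, 5.91, 5.79 and 4.61 in Young mice (1.10, adjusted p = 0.014). Young mouse 2 overlapped the MA range. Slc25a20, Cpt1b, Acot1 and Acaa2 of this list were higher in all MA than in all Young mice without overlap, against 2.91% of all genes, but were not called. Gfpt2, the rate-setting enzyme of the hexosamine pathway, rose by 1.37 (SE 0.24, adjusted p = 0.0065), at 7.52 to 8.68 in MA and 5.42 to 6.81 in Young mice. Cidea, a lipid droplet protein and the only call among all cell type markers, was at 9.07 to 9.54 in MA and 8.59 to 8.83 in Young mice (0.72, adjusted p = 0.017). It was listed as a brown adipocyte marker, whose other measured members Cox8b and Cox7a1 differed by −0.16 (adjusted p = 0.582) and −0.30 (adjusted p = 0.341).

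Among 30 genes of calcium handling and ion channels, 2 rose and 1 fell, against 0.745% and 0.635% of all genes. Slc8a1, the sodium-calcium exchanger, was at 10.97 to 11.25 in MA and 10.47 to 10.89 in Young mice (0.54, adjusted p = 0.042). Jph2, which ties the T-tubule to the sarcoplasmic reticulum, rose by 0.52 (adjusted p = 0.042), with overlap (9.22 to 9.49 in MA and 8.46 to 9.30 in Young mice). Kcnd2, a channel of the transient outward current, fell by 0.79 (adjusted p = 0.033), at 6.66 to 7.37 in MA and 5.81 to 8.48 in Young mice, the 5.81 being Young mouse 4. In the list of proteasome and muscle ubiquitin ligases 1 of 23 genes was called, Trim54 (MuRF3), a microtubule- and sarcomere-bound ligase, at 11.77, 12.02, 12.03 and 11.78 in MA and 11.05, 10.99, 10.90, 11.46 and 11.39 in Young mice (0.71, adjusted p = 0.014), against −0.05 in WT. In the autophagy and lysosome list 1 of 24 was called, Ulk1, which starts autophagosome formation, at 8.59 to 8.85 in MA and 9.12 to 9.51 in Young mice (−0.57, adjusted p = 0.039).

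Genes of protein folding, antioxidant defence and endothelium gave values without calls. Cryab and Hspb1, the small heat shock proteins of cardiomyocytes, differed by 0.55 (adjusted p = 0.073) and 0.69 (adjusted p = 0.091), with Cryab at 11.99 to 12.32 in MA and 11.54 to 11.87 in Young mice. Gstm1, a glutathione transferase, was at 10.15 to 10.29 in MA and 9.55 to 9.73 in Young mice (0.49, adjusted p = 0.091). Nos3, the endothelial nitric oxide synthase, was at 7.70 to 8.27 in MA and 7.28 to 7.75 in Young mice (0.69, adjusted p = 0.099). None of 19 measured genes of endothelial signalling was called, with a median of 0.25, and the summed endothelial markers differed by 0.20 between the group means.

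Of 42 called genes followed through the alternative analyses, which left out the H2A histone genes and 6430548M08Rik, 19 kept the call whichever of the 9 mice was left out: Nppb, Ankrd23, Serpina3n, Cdkn1a, Tnfrsf12a, Cdh4, Cds1, Gpnmb, Gfpt2, Sh3gl2, Ralgps2, Nrep, Aqp4, Pdcd4, Gzmm, Trim30a, Tmem86a, Lypd2 and Zfp30. Of these 19, Tnfrsf12a, Pdcd4, Gzmm, Trim30a, Tmem86a, Lypd2 and Zfp30 lost the call in the fit without surrogate variables. Serpina3n and Trim30a lost it in the authors' normalized values. The other 23 of the 42 lost the call without at least 1 mouse, 20 of them without Young mouse 1. Without that mouse alone, the adjusted p was 0.053 for Trim54, 0.068 for C4b, 0.061 for Akap1, 0.066 for Rcan1 and 0.085 for Klk1b26, and without Young mouse 3 alone it was 0.051 for Eln. Gsta1, Ogfod1 and Cidea lost it without Young mouse 1 and without 1 MA mouse, with adjusted p-values up to 0.054, 0.056 and 0.052. Acot2 reached 0.081, P2ry1 0.091 and Pcolce2 0.091 in 3, 3 and 4 of 9 such analyses. Sphk1 (0.096), Kcnd2 (0.070), Ulk1 (0.132), Slc8a1 (0.109) and Ppat (0.104) lost it in 5 of 9, Qk in 6 (0.124), and Ankrd1 (0.071), Mmp14 (0.114), Jph2 (0.178), Wnk4 (0.123) and Slc44a2 (0.121) in 7.

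Where a gene had several probes, some disagreed. Another probe for Acot2 gave 0.14 (adjusted p = 0.876), for Zfp30 0.10 (adjusted p = 0.891), for Klk1b26 0.62 (adjusted p = 0.378), for Kcnd2 −0.37 (adjusted p = 0.483) and for Pcolce2 −0.19 (adjusted p = 0.811). Other probes gave −0.97, −0.93 and −0.15 for Pdcd4, none of them called, and 1.37 (adjusted p = 0.014) and 0.08 (adjusted p = 0.953) for Gsta1. The remaining lists covered glycolysis (23 measured genes), lipid synthesis (21, with Sphk1 called, against 0.745% of all genes called higher), sarcomere (26) and unfolded protein response (18). They also covered hypoxia (16), mitochondrial ribosome (28) and splicing (25). By the brightest probes their medians lay between −0.01 and 0.17, with no other call. For Ndrg1, of the hypoxia list, the brightest probe gave 0.45 (adjusted p = 0.210). Another Ndrg1 probe was called, at 1.18 (adjusted p = 0.026), without overlap between ages.

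**Figure D4:**
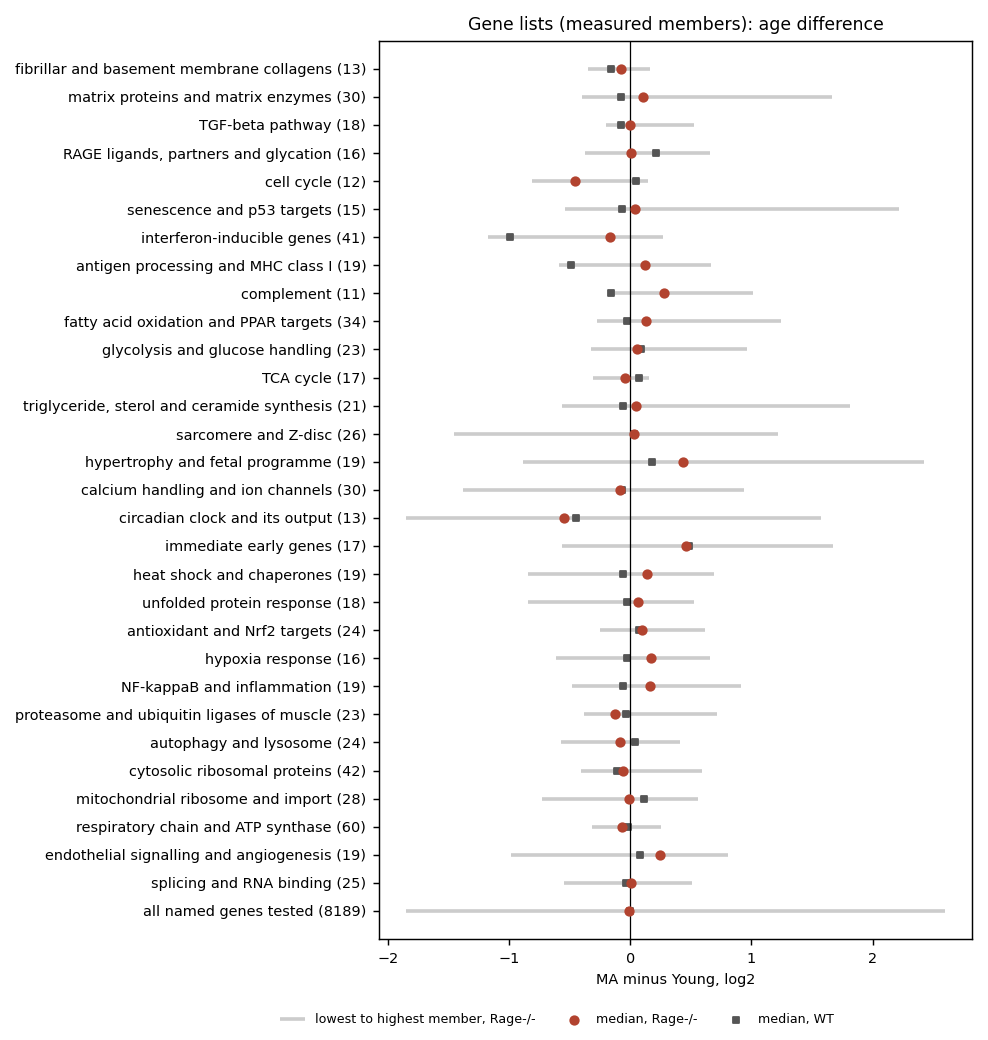
Median MA minus Young difference (horizontal axis, log2 units) of the measured members of 30 gene lists and of all named genes, in Rage-/- (red) and WT (dark squares), with the number of measured members in brackets. Grey lines run from the lowest to the highest member in Rage-/-. The medians for Rage-/- run from −0.54 for the clock list to 0.46 for immediate early genes, and the medians for interferon-inducible genes are −0.17 in Rage-/- and −0.99 in WT.

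The Old Rage-/- mice show where these genes stood at 21 months. They share no array with the MA mice, but a step from Young to Old uses the same Young arrays, so its values are given only side by side. Over the 103 probes higher in MA the Old mice lay a median of 0.72 above the Young and −0.08 from the MA mice, and over the 77 lower probes −0.69 and 0.02. Nppb had a median of 13.09 in Old mice (12.51 to 13.66), Ankrd23 of 10.54 (10.13 to 10.83) and Serpina3n of 8.71 (7.82 to 10.34), each at or above its MA mean of 13.001, 10.09 and 8.40. Tnfrsf12a had a median of 10.12 (8.64 to 10.46), against an MA mean of 9.12. Its Old levels differed by BeadChip: the 4 mice on BeadChip 1 averaged 10.28 (9.94 to 10.46) and the 2 on BeadChip 5 averaged 8.86 (8.64 to 9.09). Mean levels of Trim54 were 11.16 in Young, 11.90 in MA and 11.18 in Old mice, and those of Mmp14 were 7.72 in Young, 8.91 in MA and 8.04 in Old mice. The Old means of both genes differed by BeadChip: for Mmp14 the 4 Old mice on BeadChip 1 averaged 8.61 (7.71 to 9.41) and the 2 on BeadChip 5 averaged 6.89, and for Trim54 the values were 11.41 and 10.73.

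**Figure D5:**
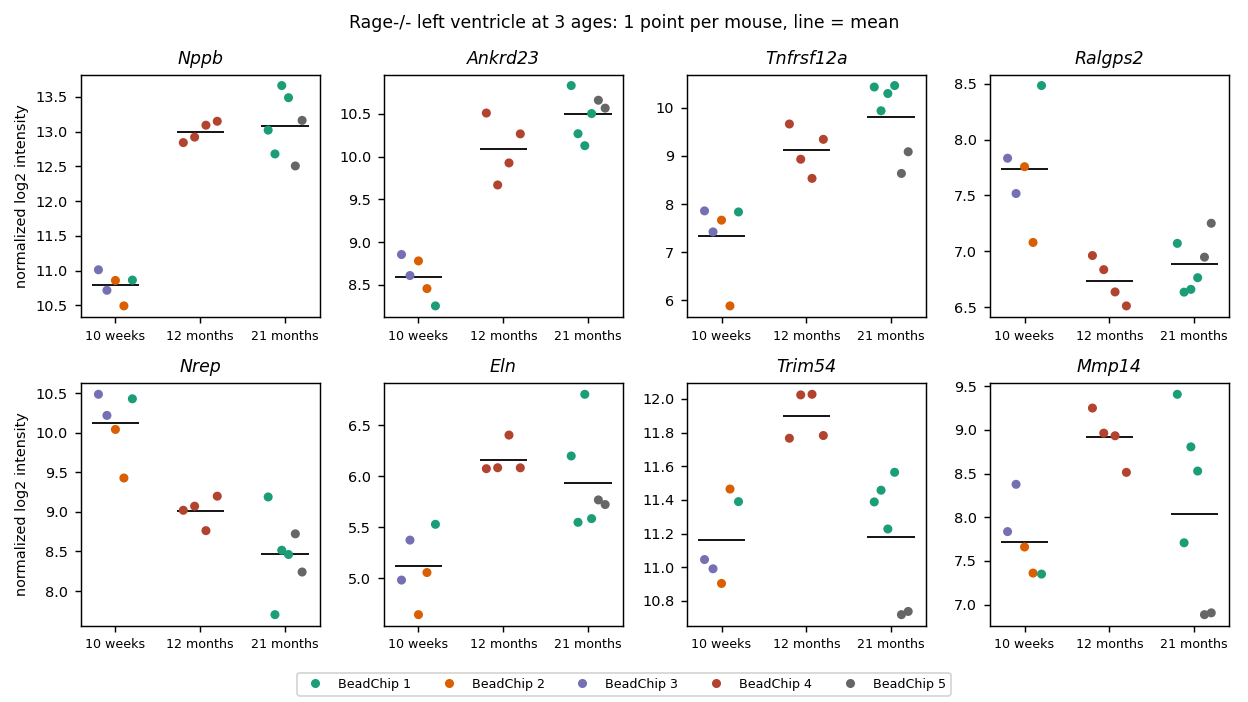
Normalized log2 intensity (vertical axis) of 8 genes in Rage-/- mice at 10 weeks (n = 5), 12 months (n = 4) and 21 months (n = 6), 1 point per mouse coloured by BeadChip, with the group mean as a line. Nppb and Ankrd23 are as high at 21 as at 12 months, and Ralgps2 and Nrep are low at both later ages. For Tnfrsf12a, Trim54 and Mmp14 the 2 Old mice on BeadChip 5 lie below the 4 on BeadChip 1, whose Mmp14 mean was 8.61.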

How the data were processed

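Gene expression was measured in LV total RNA with 1 Illumina MouseWG-6 v2.0 array per mouse. The authors exported bead intensities with GenomeStudio 2011.1 and deposited 1 average intensity per probe and array without background correction. The deposited detection p-value columns rise with signal and hold 1 minus p. The authors' log2 matrix, transformed and spline-normalized in lumi under R 4.0.2, was used as an alternative.

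Intensities were corrected, quantile-normalized and log2-transformed with neqc of limma 3.58.1 (offset 16) in R 4.3.3. Tests covered the 13277 of 45281 probes that 25% or more of the 29 arrays detected (p below 0.01), of which 11504 carry 1 gene symbol, 6 several and 1767 none, giving 8189 genes. Symbols came from the platform annotation, updated through Entrez identifiers to RefSeq (GRCm38.p6) for 11489 probes. Each probe was fitted on 6 genotype-by-age groups plus 5 of 7 surrogate variables, computed by 5 rounds of iteratively reweighted singular vectors, with two-sided empirical Bayes tests and Benjamini-Hochberg adjustment. The number of arrays limits the precision.

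Named genes, by their brightest probe, were the 15 highest and 15 lowest called differences without overlap between mice, up to 4 called members of each of 30 lists (at most 2 where none was called), the 10 leading called genes of the genotype contrast and the measured genes of the study's RT-qPCR, of which Rps24, Fitm2, Hprt and Ldha differed by 0.06 to 0.17 without a call. An "at least" fold sets the mean of the brighter group against the detection floor of the other group's arrays. The members and lists were chosen with earlier results of these data known. Equal replicate numbers were not treated as pairs. The deviations of same-numbered mice correlated at −0.22 to 0.17, but with so few mice on different BeadChips this cannot show whether the numbers marked pairs. Alternatives covered normalization, detection filter, surrogate variables, BeadChip blocks, a replicate block and leaving out each mouse.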

Additional observations from a re-analysis of the deposited data

Results flagged for a closer look

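Of 144 combinations of gene and age group examined for a mouse far from the rest of its group, 9 stood out, and chance gives about 1 in 20. Young Rage-/- mouse 4 accounted for 5 of the 9. Its level was 5.89 for Tnfrsf12a (other Young mice 7.42 to 7.86), 5.42 for Gfpt2 (6.45 to 6.81), 4.82 for Gsta1 (6.51 to 6.98), 5.81 for Kcnd2 (7.84 to 8.48) and 8.49 for Col6a1 (8.92 to 8.95). This array also had the lowest bright-probe signal over background of the 9, 2.96-fold, and the part of that signal in the low levels was not tested. Young mouse 1 was high for Pdcd4, at 9.64 (others 9.28 to 9.38). Among MA mice, mouse 3 was high for Eln at 6.40 (others 6.08), mouse 4 was low for Tie1 at 5.50 (others 6.41 to 6.60), and mouse 2 was high for Nr1d2 at 8.47 (others 7.86 to 7.96).

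A difference of the age step between genotypes, Rage-/- minus WT, passed the limma interaction test for 10 genes. It was 1.52 for Ankrd23, 0.99 for Akap1, 0.82 for Mprip, 1.08 for Apoe, 1.54 for Tie1, 2.70 for Vmn1r65 and 1.64 for Cd72. It was −1.30 for Lypd2, −1.41 for P2ry1 and −1.60 for Pisd-ps3. The Rage-/- levels of Vmn1r65 and Cd72 were mostly not above background. The MA Rage-/- arrays were all on BeadChip 4 and the MA WT arrays all on BeadChip 2, so genotype at 12 months and BeadChip cannot be told apart.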

How the results depend on the processing

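Calls in Rage-/- MA against Young mice numbered 180 (103 higher, 77 lower). They were 323 with log2 and quantile normalization, 365 with the authors' values, 285 with 7 surrogate variables, 97 without a detection filter, 49 without BeadChips 5 and 6, 38 without surrogate variables, 12 in the 9 arrays alone without surrogate variables, 9 with BeadChip as a random block (consensus correlation 0.247) and 1 when it was a fixed block. Both BeadChip fits also had no surrogate variables. The split was 127 higher and 60 lower with median centring, and 178 and 187 in the authors' values. Leaving out a mouse gave 57 to 234 calls. The genotype contrast gave 14 calls (10 with a more positive and 4 with a more negative step in Rage-/-). It gave 82 with log2 and quantile normalization, 152 (88 and 64) with the authors' values, 33 (19 and 14) with median centring, 42 with an offset of 50, 49 with detection in 75% of arrays, 65 without a filter, 90 with 7 and 1 without surrogate variables, 1 with the fixed BeadChip block, and 0 with the random block, in the compared groups alone without surrogate variables, or without BeadChips 5 and 6. Leaving out a mouse gave 1 to 55.

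The replicate block, which pairs mice by number only, gave 179 and 21 calls, 132 of the 179 shared with the 180. Reversed differences were those of Rcan1 (−0.0308), Rgs4 (1.04), C4a (−0.14), Arntl (−1.02), Per2 (1.16) and Ciart (1.17) under the fixed BeadChip block, and of Igtp in the authors' values (0.0605) and under the replicate block (0.0655). Nppb, Ankrd23, Cdh4 and Gpnmb were called in 21 of 22 alternatives, all but the fixed block. In the fixed-block fit, Old WT mouse 2 was the only link between the BeadChip of the MA Rage-/- mice and the others. The cause of these shifts was not tested. With 4 and 5 arrays and dim probes such as Eln, Aqp4 and Lypd2 near background, small differences were not detectable.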
